A study of Mus musculus with 22 samples.

Results

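The small leucine-rich proteoglycans are secreted matrix proteins with a core of leucine-rich repeats, and 10 genes of this family that include fibromodulin (Fmod) were followed through choroid plexus (ChP) of mice with altered Otx2. The genes were Fmod, Prelp, Lum, Omd, Dcn, Bgn, Aspn, Ecm2, Ogn and Podn, 10 of the 33984 genes in the files. They were listed by name with earlier results of these data known, and the family was chosen by the log2 fold changes of Fmod after Cre-Tat and in Otx2+/- mice. These changes of Fmod, and the differences between them, are therefore given as values with no test, and counts of members called in those comparisons are over the other 9. The same holds between the ventricles of vehicle mice, since these pools enter the changes after Cre-Tat. It also holds in Otx2+/AA mice, since their wildtype controls enter the change in Otx2+/-. For each gene, the transcript with the most counts summed over all files was used.

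RNA of dissected ChP was sequenced in 14 pools of mice, with 2 pools, A and B, in each of 7 groups. In the conditional model, 3-month-old Otx2lox/lox mice of a strain labelled S129 received intracerebroventricular Cre-Tat, a recombinase protein that enters cells, or vehicle. ChP of the lateral (LV) and of the fourth ventricle (4V) was taken 15 days later, from 5 mice with Cre-Tat and 4 with vehicle in a pool, and all these mice carry the floxed allele. In the constitutive model, of a strain labelled B6D2, 4V ChP came from wildtype mice, from mice labelled Otx2+/-, named Otx2+/GFP in the study's methods, and from mice labelled Otx2+/AA. The first and second of these were 3 months old, with 4 Otx2+/- mice and 5 wildtype littermates stated, and the age and number of the Otx2+/AA mice and the nature of their allele are not given in the sources used here. Cre-Tat enters any cell that it reaches, Otx2+/- mice carry their allele in every cell from conception, and the models differed in strain and in sequencing run, which cannot be told apart from the model. Whether the LV and 4V pools held the same mice is not stated. P-values measure the spread between pools alone.

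These proteoglycans bind collagen fibrils and limit their diameter and spacing, and several also bind transforming growth factor beta. Decorin, biglycan and asporin form one branch of the family, and fibromodulin, lumican, PRELP and osteomodulin form another, many of whose members carry keratan sulfate chains. In brain, they are best known from meninges, vessel walls and the connective tissue core of the ChP, beneath the secretory epithelium.

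The pools held 22750019 to 50088408 counts each, and for 14 of the 16 files of the conditional model the pool was taken from the library number in the file name, since these files are attached to samples of other numbers. Runs joined by number differed by 1.002 to 1.032 times the degrees of freedom of a chi-square test, against 13.2 to 20.5 as attached. Otx2, the targeted gene, counted over its whole transcript, was higher in Cre-Tat and Otx2+/- pools than in their controls, at 1202 and 1223 CPM (counts scaled to library size, with TMM factors) in the 4V pools labelled Cre-Tat against 386 and 393 in vehicle, and 1027 and 886 in Otx2+/- against 361 and 303 in wildtype. The deleted exon cannot be counted apart in these files, so this count does not measure the knockdown, and groups are named as the pools were labelled. Fold changes over the whole text were fitted with edgeR, and scaling by total counts in place of TMM factors moved the median over all genes tested, on the log2 scale, by 0.17 in LV and 0.15 in 4V after Cre-Tat, 0.04 in Otx2+/-, 0.11 in Otx2+/AA and -0.19 between ventricles. In bulk RNA, fewer cells of a type and less RNA per cell cannot be told apart.

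In control ChP, decorin (Dcn) was the most abundant of the 10 transcripts per length, and Fmod was among the scarce ones. On the scale of CPM per kb of transcript, the 4V vehicle pools held Dcn at 95.5 ± 0.407 (SD, n = 2), osteoglycin (Ogn) at 65.5 ± 3.28 and Prelp at 47.8 ± 0.693. Ecm2 (22.7 ± 0.186) and Lum (22.6 ± 0.836) overlapped, followed by Bgn at 19 ± 1.79 and Fmod at 6.08 ± 1.31. Podn (4.26 ± 0.668), Omd (3.38 ± 0.411) and Aspn (1.53 ± 0.0147) were the lowest. Wildtype 4V ChP also had Dcn first, at 173 ± 25.5 CPM per kb, and there the pools of Lum, Ogn and Prelp overlapped, at 57.5 ± 6.69, 54.7 ± 5.41 and 49.4 ± 3.76. Fmod made up 2.11% of the summed level per length of the 10 genes in 4V vehicle and 1.43% in wildtype.

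After Cre-Tat, the order changed. In 4V ChP labelled Cre-Tat, Fmod stood first at 183 ± 30.2 CPM per kb, or 31.4% of the summed level, ahead of Prelp at 134 ± 38.5 and Dcn at 99.8 ± 12.7, and the pools of Prelp and Dcn overlapped. The summed level of the 10 genes was 584 ± 47.9 CPM per kb there against 288 ± 1.63 in vehicle, and without Fmod it was 400 ± 17.7 against 282 ± 0.319. In LV, the sum was 554 ± 6.57 with Cre-Tat against 373 ± 28.3 with vehicle, and Fmod took 23.5% of it against 3.72%. In Otx2+/- ChP, the sum was 584 ± 39.8 against 405 ± 44.5 in wildtype, and Fmod took 6.58% of it.

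**Figure D1:**
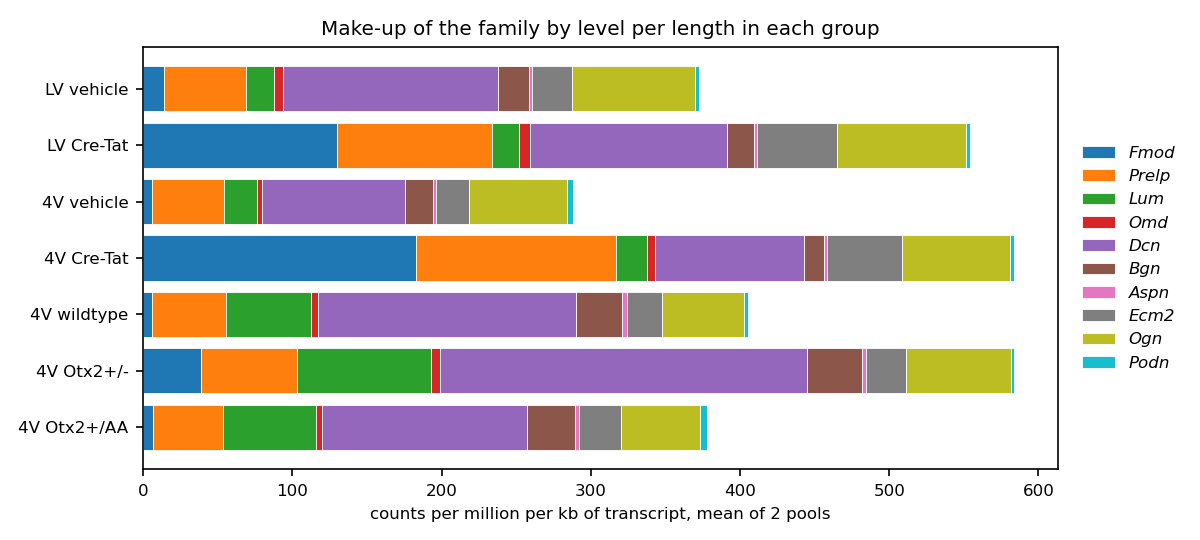
Mean level of each gene in CPM per kb of transcript, stacked by gene for the 7 groups (2 pools each). Fmod (blue) made up 31.4% of the bar in 4V Cre-Tat and 2.11% in 4V vehicle, while Dcn (purple) made up the longest segment in both control bars of 4V ChP.

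Fibromodulin binds fibrillar collagen and takes part in the assembly and crosslinking of fibrils. In LV ChP, Fmod was at 29.8 and 56.8 CPM in pools A and B with vehicle and at 363 and 448 with Cre-Tat. In 4V ChP, it was at 16.1 and 21.9 with vehicle and at 505 and 638 with Cre-Tat. The groups did not overlap in either ventricle, and the means differed 9.37-fold in LV and 30.1-fold in 4V, with the 4V ratio of single pools between 23.1 and 39.7. In the constitutive model, Fmod was at 21.7 and 14.5 CPM in wildtype, 129 and 110 in Otx2+/- and 14.2 and 28.5 in Otx2+/AA. The Otx2+/- pools stood 6.63-fold above wildtype on average, without overlap, while the Otx2+/AA pools lay on both sides of the wildtype pools. By mean level, the groups ran from 4V Cre-Tat (572 CPM) over LV Cre-Tat (405), Otx2+/- (120) and LV vehicle (43.3) to Otx2+/AA (21.3), 4V vehicle (19) and wildtype (18.1), and the last 3 of these overlapped.

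Fmod lies on the plus strand of chromosome 1 (chr1:134037254-134048277, GRCm38), and its counted transcript of 3 exons and 3120 bases overlaps no exon of another gene. Prelp lies on the minus strand of the same chromosome (chr1:133910304-133921414), with its start 115.8 kb from that of Fmod. Ecm2 is on chromosome 13 (chr13:49504810-49532789, plus strand). These were the 3 members that were higher with Cre-Tat in both ventricles, and the 250 bases before their starts, from RefSeq on GRCm38.p6 and read 5′ to 3′ on the strand of the gene, are shown for that reason. Capitals mark TAATC or its reverse complement GATTA, the core of the site that OTX2 binds.
Fmod, chr1:134037004-134037253: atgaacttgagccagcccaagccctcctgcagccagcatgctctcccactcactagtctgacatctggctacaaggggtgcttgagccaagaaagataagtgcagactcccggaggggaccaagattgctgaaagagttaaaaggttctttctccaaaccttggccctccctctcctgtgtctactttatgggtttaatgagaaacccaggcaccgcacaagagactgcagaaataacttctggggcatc
Prelp, chr1:133921402-133921651: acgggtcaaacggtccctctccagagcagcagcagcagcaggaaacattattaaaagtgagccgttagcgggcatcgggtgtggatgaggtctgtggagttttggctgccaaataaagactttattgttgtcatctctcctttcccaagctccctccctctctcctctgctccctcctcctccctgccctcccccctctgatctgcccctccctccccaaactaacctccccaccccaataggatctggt
Ecm2, chr13:49504560-49504809: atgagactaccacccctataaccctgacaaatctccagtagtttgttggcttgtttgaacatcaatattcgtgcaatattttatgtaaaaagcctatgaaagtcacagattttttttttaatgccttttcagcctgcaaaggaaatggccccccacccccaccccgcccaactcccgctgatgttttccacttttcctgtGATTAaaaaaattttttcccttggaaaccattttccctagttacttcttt

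The 6-base form TAATCC, searched on both strands, was in none of the 8 members' windows that had a RefSeq entry and in 6.25% of all 32817 windows of that length. The 5-base form TAATC, which is contained in it, was in 2 of the 8, Ecm2 and Omd, and in 19.8% of all windows. In Ecm2 it begins 50 bases before the start, and the Omd window holds it at 64 and 21 bases before the RefSeq start, which lies 304 bases from the start of the counted transcript. Dcn and Lum were the members without an entry. A match is a description of letters and not of a site, and a window without one says nothing of the factor.

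In LV ChP after Cre-Tat, Prelp and Ecm2 rose, and 7 members did not pass the test. Thus 2 of the 9 members other than Fmod were called higher at an adjusted p below 0.05, against 2.21% of all 15003 genes tested. By edgeR, 0 members were called lower, against 1.03% of all genes. At an unadjusted p below 0.05, 0 were lower, against 6.22% of all genes, and DESeq2 called 0 lower. All 10 members passed the filter on low counts in this and every other comparison, and the median log2 fold change of the 9 was -0.09 against 0.004 for all genes. Prelp encodes a basic proteoglycan that anchors basement membranes to the connective tissue beneath. It was at 185 and 213 CPM with vehicle and at 336 and 416 with Cre-Tat, without overlap, a log2 fold change of 0.92 ± 0.17 (SE; edgeR, adjusted p = 0.0091). Ecm2, a matrix protein related to decorin, was at 83 and 111 CPM with vehicle and at 220 and 165 with Cre-Tat, again without overlap, a log2 fold change of 0.99 ± 0.19 (edgeR, adjusted p = 0.011). Both calls rested on LV vehicle pool A. Without it, neither passed, with Prelp at 0.82 (edgeR, adjusted p = 0.14) and Ecm2 at 0.79 (edgeR, adjusted p = 0.15).

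The remaining members in LV lay close to their vehicle values. The log2 fold changes ran from -0.24 for Podn to 0.32 for Omd, with edgeR adjusted p-values of 0.52 to 0.97. Omd encodes osteomodulin, a keratan sulfate proteoglycan of mineralised tissue, and had 10.1 and 8.95 CPM with vehicle and 11.9 and 11.8 with Cre-Tat. Lumican (Lum), which spaces collagen fibrils in cornea and other tissues, was at 46.1 and 46.6 CPM with vehicle and at 50.7 and 35.3 with Cre-Tat, so the Cre-Tat pools enclosed the vehicle pools. The 95% confidence interval of the log2 fold change of Dcn was -0.47 to 0.2 and that of Bgn -0.5 to 0.18.

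In 4V ChP after Cre-Tat, 3 of the 9 members other than Fmod rose and 2 fell. Those higher were Prelp, Ecm2 and Omd, against 5.7% of all 14550 genes tested, and those lower were Bgn and Podn, against 4.98% of all genes. The median log2 fold change of the 9 was 0.14 against 0.006 for all genes. DESeq2 called 2 of them higher and 0 lower. Prelp was at 175 and 171 CPM with vehicle and at 386 and 583 with Cre-Tat, a 2.8-fold difference of means (log2 1.49 ± 0.17, edgeR, adjusted p = 1.5e-05). Ecm2 was at 81.1 and 82.1 CPM with vehicle and at 187 and 176 with Cre-Tat, a 2.22-fold difference (log2 1.16 ± 0.13, edgeR, adjusted p = 1.5e-05). For both genes, each Cre-Tat pool lay above each vehicle pool, and the calls held with any 1 pool left out.

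Omd, Bgn and Podn moved less, and their calls depended on single pools and on the method. Omd was at 5.7 and 4.8 CPM with vehicle and at 9.88 and 8.61 with Cre-Tat (log2 0.81 ± 0.22, edgeR, adjusted p = 0.022). Biglycan (Bgn), a chondroitin sulfate proteoglycan that also signals through Toll-like receptors, was at 49 and 42.9 CPM with vehicle and at 31.8 and 32.8 with Cre-Tat (log2 -0.51 ± 0.14, edgeR, adjusted p = 0.024). Podocan (Podn), which binds collagen and is known from vessel wall and kidney, was at 17.2 and 13.8 CPM with vehicle and at 10 and 10.5 with Cre-Tat (log2 -0.59 ± 0.18, edgeR, adjusted p = 0.045). None of the 3, which were picked as called, overlapped between groups, and the share of all genes without overlap was not counted. Without 4V vehicle pool A, the edgeR adjusted p was 0.33 for Bgn and 0.46 for Podn, and without Cre-Tat pool A it was 0.078 for Omd and 0.073 for Podn. Without vehicle pool B it was 0.12 for Omd. By DESeq2 the adjusted p-values of Omd, Bgn and Podn were 0.076, 0.05 and 0.13, and none passed. The counted transcripts of Bgn and Podn held 37% and 22.1% of the counts on all their transcripts, and with these summed the edgeR adjusted p was 0.11 and 0.061. A read can be counted on several transcripts, so these shares do not place the other reads elsewhere, and a sum can hold a read more than once. With total counts as the scale, Bgn and Podn kept their direction at -0.36 and -0.44 (edgeR, adjusted p = 0.14 and 0.13).

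Decorin, the collagen-binding dermatan sulfate proteoglycan with the highest level per length of the 10 in control ChP, did not pass the test after Cre-Tat. Dcn was at 168 and 167 CPM with vehicle and at 191 and 160 with Cre-Tat in 4V, and the Cre-Tat pools lay on both sides of the vehicle pools. Its log2 fold change was 0.07, with a 95% confidence interval of -0.23 to 0.36. Ogn, which encodes osteoglycin (mimecan), was at 162 and 174 CPM with vehicle and at 187 and 183 with Cre-Tat, and its interval was -0.13 to 0.42. Lum was at 53.8 and 56.7 against 57.8 and 41.6, and asporin (Aspn), a relative of decorin that inhibits growth factor signalling, was at 3.56 and 3.51 against 4.18 and 3.73.

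**Figure D2:**
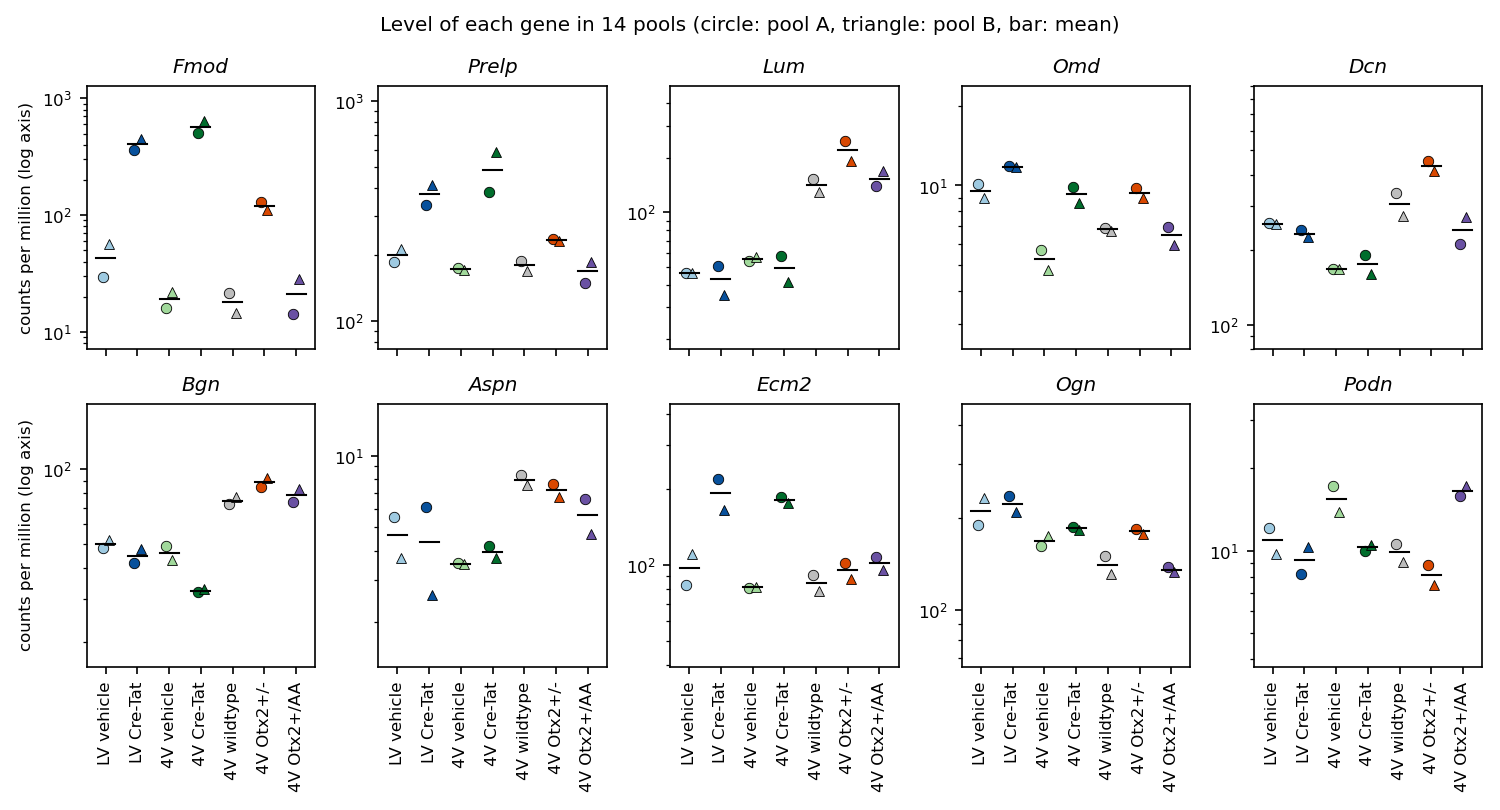
CPM of each of the 10 genes (log axis) in the 14 pools, with circles for pool A, triangles for pool B and bars for the group mean. The Fmod pools labelled Cre-Tat sit between 363 and 638 CPM and the other 8 control and Otx2+/AA pools between 14.2 and 56.8, while Dcn and Lum are highest in Otx2+/-.

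Whether the Cre-Tat effect differed between the ventricles was tested as an interaction over both ventricles. By edgeR, 0 of the 9 members other than Fmod passed, against 0.00642% of all 15565 genes, and 0 passed by DESeq2. At an unadjusted p below 0.05, 1 of the 9 was higher in 4V and 0 lower, against 1.29% and 1.38% of all genes. The difference for Fmod, given with no test, was 1.69 on the log2 scale, larger in 4V. It lay between 1.15 and 2.09 with single pools left out. For Prelp the difference was 0.56 (95% confidence interval 0.01 to 1.12) and for Ecm2 0.16 (interval -0.35 to 0.67).

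In Otx2+/- ChP, edgeR called 0 of the 9 members other than Fmod higher, against 1.8% of all 14573 genes, and 0 lower, against 1.75% of all genes. Of the 9, 7 had log2 fold changes above 0, and their median was 0.37 against -0.001 for all genes. At an unadjusted p below 0.05, 5 of the 9 were higher and 0 lower, against 9.24% and 9.29% of all genes. Dcn was at 336 and 272 CPM in wildtype and at 452 and 415 in Otx2+/- (log2 0.51 ± 0.14, edgeR, adjusted p = 0.087). Lum was at 152 and 129 in wildtype and at 248 and 192 in Otx2+/- (log2 0.65 ± 0.15, edgeR, adjusted p = 0.06). Neither gene overlapped between the groups, and both crossed the threshold under other settings. DESeq2 called these 2 of the 9 higher and 0 lower, with adjusted p-values of 0.017 for Dcn and 0.0037 for Lum. Without Otx2+/- pool B the edgeR adjusted p-values were 0.041 and 0.0047, and without wildtype pool A 0.036 and 0.0069.

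The members that rose in both ventricles after Cre-Tat did not pass the test in Otx2+/-. Prelp was at 188 and 169 CPM in wildtype and at 236 and 231 in Otx2+/- (log2 0.39 ± 0.12, edgeR, adjusted p = 0.12). Ecm2 was at 91 and 78.6 in wildtype and at 102 and 88.3 in Otx2+/-, with overlap (log2 0.17 ± 0.13, edgeR, adjusted p = 0.54). Bgn was at 72 and 77.2 in wildtype and at 84.8 and 92.1 in Otx2+/- (log2 0.25 ± 0.11, edgeR, adjusted p = 0.29), the opposite sign to 4V Cre-Tat. Omd (6.89 and 6.75 against 9.79 and 8.94 CPM) and Ogn (150 and 131 against 184 and 177 CPM) had Otx2+/- pools above both wildtype pools, with edgeR adjusted p-values of 0.2 and 0.14.

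The difference between the 4V effects of Cre-Tat and of Otx2+/- was also tested. Here 3 of the 9 members other than Fmod passed, against 1.64% of all 15327 genes. The Cre-Tat effect was larger for Prelp by 1.09 on the log2 scale (95% confidence interval 0.58 to 1.59, edgeR, adjusted p = 0.033) and for Ecm2 by 0.97 (0.59 to 1.36, edgeR, adjusted p = 0.016). For Bgn the Cre-Tat effect was lower by a log2 difference of -0.76 (interval -1.13 to -0.4, edgeR, adjusted p = 0.042). For Fmod it was larger by 2.18, given with no test, and by 1.88 to 2.45 with single pools left out. For Lum the difference was -0.81 (interval -1.33 to -0.29, edgeR, adjusted p = 0.14). With pools left out in turn, Bgn missed the threshold without any 1 of the 8 pools. Prelp missed it without any 1 pool but 4V Cre-Tat pool A, and Ecm2 missed it without either 4V vehicle pool or wildtype pool A. The highest edgeR adjusted p-values were 0.2 for Bgn, 0.16 for Prelp and 0.093 for Ecm2.

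**Figure D3:**
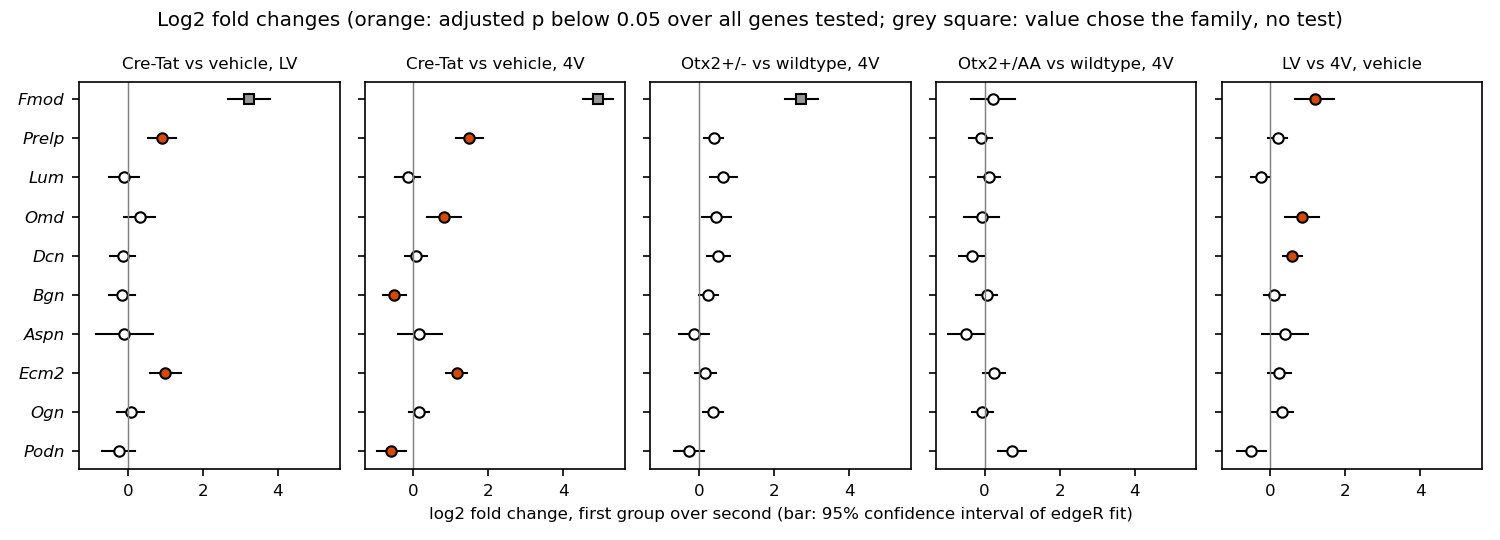
Log2 fold change of each gene in the 5 comparisons between groups, with 95% confidence intervals of the edgeR fit. Orange points have an adjusted p below 0.05 over all genes tested. Grey squares are the values of Fmod that chose the family, with no test made. The Fmod points between ventricles and in Otx2+/AA share control pools with these values. The first of these points is drawn orange, but its colour is not read as a test. Prelp and Ecm2 lie right of 0 in both Cre-Tat panels. In the Otx2+/- panel, 7 of the 9 members other than Fmod lie right of 0, with a median of -0.001 for all genes.

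None of the 9 members other than Fmod passed the test in Otx2+/AA pools, which shared their wildtype pools with the Otx2+/- comparison. By edgeR, 0 of the 9 were called higher, against 0.172% of all 14494 genes, and 0 lower, against 0.172%. DESeq2 also called 0. At an unadjusted p below 0.05, 1 of the 9 was higher and 2 lower, against 4.22% and 4.7% of all genes. Podn was at 10.6 and 9.11 CPM in wildtype and at 15.8 and 17.3 in Otx2+/AA, without overlap (log2 0.73 ± 0.18, edgeR, adjusted p = 0.12), and it passed with no filter on low counts (edgeR, adjusted p = 0.014). In Otx2+/- the same gene was at 8.83 and 7.5. Fmod had a log2 fold change of 0.22, given with no test because the wildtype pools enter its change in Otx2+/-.

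Between the ventricles of vehicle mice, 2 of the 9 members other than Fmod were higher in LV, against 3.47% of all 14561 genes. By edgeR 0 were lower, against 3.98% of all genes. At an unadjusted p below 0.05, 3 of the 9 were higher and 2 lower, against 10.6% and 12.2% of all genes. DESeq2 called 1 of the 9 higher and 0 lower. These pools are the controls of the Cre-Tat comparisons, so the difference of Fmod, 1.19 on the log2 scale, is given with no test. Dcn was higher by 0.59 ± 0.11 (edgeR, adjusted p = 0.0069) and Omd by 0.85 ± 0.21 (edgeR, adjusted p = 0.031). Dcn was at 254 ± 0.764 CPM (SD, n = 2) in LV and at 168 ± 0.715 in 4V, without overlap. Fmod, at 29.8 and 56.8 CPM in LV and 16.1 and 21.9 in 4V, varied more between the LV pools. By DESeq2, Omd did not pass, with an adjusted p of 0.089. The edgeR calls of Dcn and Omd depended on single 4V vehicle pools. Without 4V vehicle pool A, the log2 difference of Fmod was 0.99 and that of Omd 0.99. Without 4V vehicle pool B, that of Dcn was 0.59 and that of Omd 0.73. With total counts as the scale, Dcn (0.4, edgeR, adjusted p = 0.055) and Omd (0.66, edgeR, adjusted p = 0.07) were no longer called, and Podn was called lower (-0.69, edgeR, adjusted p = 0.037). Leaving out LV vehicle pool A added Ogn (0.45, edgeR, adjusted p = 0.047) and Podn (-0.69, edgeR, adjusted p = 0.018).

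Several members are neighbours on a chromosome. Ecm2, Aspn, Omd and Ogn stand in this order on chromosome 13, with starts 39.7, 38.3 and 25.3 kb apart, and all lie within Cenpp on the other strand. After Cre-Tat in 4V, their log2 fold changes were 1.16, 0.16, 0.81 and 0.14, and Ecm2 and Omd passed the test, the latter with a call that depended on single pools. Cenpp itself was too low to be tested there, and its log2 fold change in LV was -0.22 ± 0.62 (edgeR, adjusted p = 0.95). Dcn and Lum, 85.5 kb apart on chromosome 10, were within 0.15 of 0 on the log2 scale in the same comparison. Strand was not stated for the counting, and 350 bases of the Prelp exons overlap Gm15851 on the other strand, which was at 5.48 and 7.41 CPM with Cre-Tat and 3.26 and 3.32 with vehicle in 4V.

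Genes around Fmod were read in a window of 200 kb on either side of its start. Btg2, an antiproliferative gene 41.9 kb away and the nearest in the window, had a log2 fold change of 0.1 ± 0.23 after Cre-Tat in 4V (edgeR, adjusted p = 0.87). Chil1, which encodes a chitinase-like secreted protein, lies 145.2 kb away and was at 14.9 and 14.3 CPM with Cre-Tat against 4.37 and 5.26 with vehicle (log2 1.61 ± 0.2, edgeR, adjusted p = 4.3e-05). Adora1, the adenosine A1 receptor at 198.1 kb, was at 40 and 46 CPM against 13.1 and 11.8 (log2 1.79 ± 0.16, edgeR, adjusted p = 7.3e-07). Adora1 was also higher in Otx2+/- (log2 1.27 ± 0.16, edgeR, adjusted p = 0.0035). Gm15851 rose in 4V (log2 0.97 ± 0.26, edgeR, adjusted p = 0.022), and Mybph was at 0.71 ± 0.38 (edgeR, adjusted p = 0.28). Gm8618, Chit1 and the proteoglycan gene Optc were too low to be tested in 4V. Genes that rose in 4V, as did 5.7% of all genes, thus stand on both sides of Fmod. On one side they are Prelp and Gm15851, whose exons overlap on opposite strands, and the strand of the counting was not stated. Btg2, between Fmod and Chil1, did not pass.

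**Figure D4:**
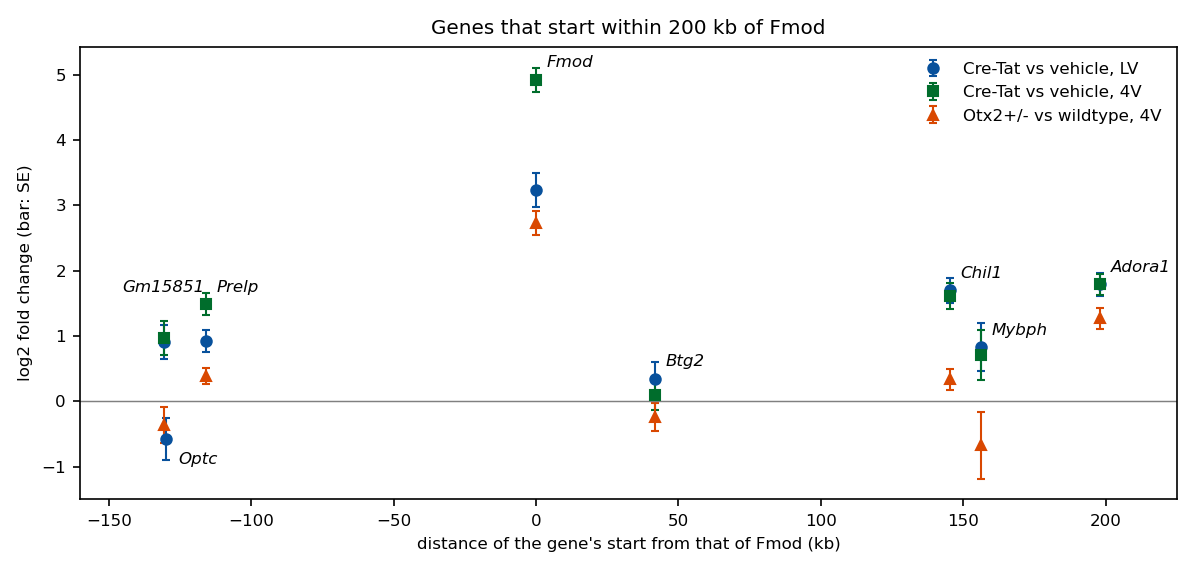
Log2 fold change with its SE for genes that start within 200 kb of Fmod, by distance of the start in kb, in the comparisons of Cre-Tat in LV (circles) and 4V (squares) and of Otx2+/- (triangles). Fmod at 0 reaches 4.92 in 4V, Chil1 and Adora1 lie at 1.61 and 1.79, and Btg2 lies near 0.

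The other 8 genes of the family were low or passed no test after knockdown. Tsukushi (Tsku), a secreted inhibitor of several growth factors, was at 5.27 and 3.77 CPM in wildtype and 2.32 and 2.06 in Otx2+/- (log2 -1.04 ± 0.27, edgeR, adjusted p = 0.085). Epiphycan (Epyc), a cartilage proteoglycan, was at 6.53 and 7.99 in wildtype and 17.4 and 8.32 in Otx2+/- (edgeR, adjusted p = 0.21). Opticin (Optc), known from the vitreous of the eye, was at 3.53 and 3.98 CPM in LV vehicle and 0.445 and 0.369 in 4V vehicle (log2 3.17 ± 0.43, edgeR, adjusted p = 0.00056). Kera had 1 count in a single wildtype pool and 0 in the others. Chad, Chadl, Nyx and Podnl1 had 0 to 20 counts in every pool.

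The collagens and enzymes that work with these proteoglycans were read from lists that were drawn up with earlier results of these data known. Of 9 fibrillar collagens tested in 4V after Cre-Tat, 3 rose and 2 fell, against 5.7% and 4.98% of all genes. Their median log2 fold change was 0.38 against 0.006 for all genes. Col1a2, a chain of type I collagen, rose from 39.4 and 51.1 to 131 and 136 CPM (log2 1.57 ± 0.15, edgeR, adjusted p = 1.3e-06). Col11a1, of the type XI collagen that nucleates fibrils, was at 0.593 and 0.462 CPM with vehicle and 4.72 and 6.2 with Cre-Tat (log2 3.34 ± 0.39, edgeR, adjusted p = 1.6e-05). Both also passed in LV (log2 1.64 and 3.04) and in Otx2+/- (log2 1.09 and 2.6), where 3 of 9 fibrillar collagens rose, against 1.8% of all genes. The other fibrillar collagen that fell in 4V was Col5a2. Col5a3 rose and Col27a1 fell (log2 2.3 ± 0.62 and -0.8 ± 0.18, edgeR, adjusted p = 0.023 and 0.006). Of 6 fibril-associated and beaded collagens, 1 fell in each ventricle, against 4.98% of all genes in 4V and 1.03% in LV. It was Col14a1, which binds decorin on fibrils and went from 36.1 and 38.6 to 20.1 and 17.5 CPM in 4V (log2 -0.98 ± 0.15, edgeR, adjusted p = 0.00031).

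Enzymes of collagen crosslinking and of the sugar chains were read in the same way. Of all genes in 4V after Cre-Tat, edgeR called 5.7% higher and 4.98% lower. At an unadjusted p below 0.05 these shares were 11.3% and 10.9%. Of 8 genes for lysyl oxidases and lysyl hydroxylases, 0 passed in 4V after Cre-Tat by edgeR, with 2 lower at an unadjusted p below 0.05. Of 19 genes that build chondroitin or dermatan sulfate chains, 2 rose, Xylt1 and Csgalnact1 (log2 0.79 ± 0.2 and 0.64 ± 0.13, edgeR, adjusted p = 0.013 and 0.0037), and 1 fell, Chst11 (log2 -0.58 ± 0.13, edgeR, adjusted p = 0.0094). Xylt1 starts the sugar chain on the core protein. Of 4 genes for keratan sulfate chains, 1 fell, B4galt4 (log2 -0.46 ± 0.14, edgeR, adjusted p = 0.042), and neither gene for tyrosine sulfation passed, at 0 with an unadjusted p below 0.05. In Otx2+/-, 0 of 8 crosslinking genes passed by edgeR, with 4 higher and 1 lower at an unadjusted p below 0.05 and a median of 0.28. Of 20 chain-building genes, 0 passed there, with 7 higher and 2 lower at an unadjusted p below 0.05 and a median of 0.19. Of all genes in Otx2+/-, 9.24% were higher and 9.29% lower at that unadjusted p. In LV after Cre-Tat, 0 genes of these 4 lists passed by edgeR. At an unadjusted p below 0.05, 1 was higher and 2 lower, against 7.95% and 6.22% of all genes.

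Ligands and receptors bound by the family, and proteases that cut it, changed in both directions. Of 12 ligands and receptors tested in 4V after Cre-Tat, 4 rose, Tgfb3, Tlr4, Bmp7 and Tgfbr3, and 1 fell, Tgfb2. Of all genes in this comparison, 5.7% rose and 4.98% fell. Tgfb3, which decorin and fibromodulin can bind, was at 7.63 and 8.03 CPM with vehicle and 15.3 and 15.8 with Cre-Tat (log2 1 ± 0.18, edgeR, adjusted p = 0.0013). Tgfb2 fell from 249 and 249 to 135 and 150 CPM (log2 -0.8 ± 0.13, edgeR, adjusted p = 0.00065). Of 7 proteases, 4 fell, Htra1, Tll1, Adamts5 and Mmp2, by log2 values of -0.99, -0.96, -0.54 and -0.49 with edgeR adjusted p-values of 0.0055, 0.0065, 0.027 and 0.027. Tll1 belongs to the proteases that trim the precursors of biglycan and collagen, and in Otx2+/- it rose from 10.6 and 9.51 to 38 and 24.7 CPM (log2 1.64 ± 0.22, edgeR, adjusted p = 0.0048).

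Markers of stromal cells were read beside these values, because the family is known from connective tissue. Of 14 markers of fibroblasts and meningeal stroma, 12 were tested. In 4V after Cre-Tat 1 rose (Col1a2) and 1 fell (Pdgfra), against 5.7% and 4.98% of all genes, with a median log2 fold change of 0.06. Their summed level was 327 and 345 CPM in 4V vehicle and 307 and 297 in 4V Cre-Tat, and 358 and 399 in LV vehicle and 343 and 400 in LV Cre-Tat. Most of the 4V vehicle sum was Pdgfra, which fell, while Col1a2 rose, and the part of stromal cells in the values of Fmod was not tested. In Otx2+/- the sum was 495 and 488 CPM against 399 and 408 in wildtype. Of the 12, 2 rose (Col1a2 and Col3a1) and 1 fell (Fbln1), against 1.8% and 1.75% of all genes. Col1a2 went from 81.1 and 72.5 to 167 and 159 CPM and Col3a1 from 27.2 and 34.7 to 52.7 and 56.1. Fbln1 went from 32.7 and 33.2 to 21.4 and 19.1, and Pdgfra from 186 and 189 to 167 and 155. Over the 12 markers, the median log2 fold change in Otx2+/- was 0.33 against -0.001 for all genes. At an unadjusted p below 0.05, 5 of the 12 were higher and 1 lower, against 9.24% and 9.29% of all genes. The part of stromal cells in the values of Dcn and Lum was not tested. Dpt was at 0 in both pools of LV vehicle, LV Cre-Tat, 4V vehicle and wildtype. Pdgfra, a marker of fibroblasts, was at 216 and 228 CPM in 4V vehicle and 89 and 87.6 in 4V Cre-Tat (log2 -1.33 ± 0.13, edgeR, adjusted p = 3.1e-06).

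Markers of other cell types moved with the Cre-Tat and Otx2+/- labels as well. Of all genes, 5.7% rose and 4.98% fell in 4V after Cre-Tat, 2.21% and 1.03% in LV, and 1.8% and 1.75% in Otx2+/-. All 7 epithelial markers fell in 4V, and their sum was 216233 and 182113 CPM with vehicle and 96936 and 85069 with Cre-Tat, led by Ttr. In LV, 3 of the 7 fell, and in Otx2+/- 2 of the 7. Also in Otx2+/-, 1 of 4 tested neural markers rose, Aqp4, from 12.4 and 12.4 to 35.9 and 47 CPM (log2 1.74 ± 0.16, edgeR, adjusted p = 0.0011), and the neural sum was 97.7 and 125 against 74.8 and 72.2 CPM. Of 5 macrophage markers tested there, 1 rose, Mrc1, from 14.7 and 14.3 to 23 and 22.2 CPM (log2 0.64 ± 0.14, edgeR, adjusted p = 0.042). After Cre-Tat, 4 of the 5 macrophage markers tested in 4V rose, with sums of 32 and 31.9 CPM with vehicle and 66.3 and 51.2 with Cre-Tat, and 1 of 6 rose in LV. Mural markers passed no test in 4V, with sums of 249 and 276 against 274 and 251 CPM, and 1 of 6 endothelial markers rose. Of 2 ependymal markers tested in 4V, 1 rose, Foxj1, from 101 and 85.3 to 179 and 189 CPM. Rarres2, at 19.9 and 14.2 against 26.5 and 15.8 CPM, did not pass. The ependymal sums of 122 and 99.5 against 206 and 205 CPM were mostly Foxj1. Of 4 neural markers tested in 4V, 2 rose, Gfap and Aqp4. The part of these cell types in the values of the proteoglycans was not tested.

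Profiles over the 14 pools were compared as the root mean square (RMS) difference of log2(CPM + 0.5), centred within each model, among 13440 genes with a mean of at least 1 CPM. The profile of Fmod rose and fell most like that of Ndnf, at an RMS difference of 0.558, against a median of 1.81 for all genes. Ndnf encodes a secreted neuronal survival factor and was at 4.82 and 6.28 CPM in 4V vehicle and 132 and 140 in 4V Cre-Tat. It was followed by Gpx3, an extracellular glutathione peroxidase (0.62), the calcium channel subunit Cacnb3 (0.708), the protease inhibitor Pi15 (0.74) and Megf11 (0.761). No other member was among these 5. Prelp came nearest of the members, at rank 97 (1.332), then Ecm2 at 221 (1.452) and Omd at 497 (1.561), while Podn was at rank 12875. The values were not scaled to equal variance, so these distances follow the size of a change as well as its pattern.

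For the other members, whose profiles vary less, the nearest genes were Sdc3 for Dcn (0.116), Olfml3 for Lum (0.115), Tspan9 for Bgn (0.105), Clip1 for Ogn (0.084) and Map1a for Prelp (0.125). Pigw was nearest to Aspn (0.186), Pros1 to Omd (0.162), Arhgef28 to Podn (0.153) and Hvcn1 to Ecm2 (0.131). No member was the nearest gene of another. Ecm2 stood at rank 94 of the genes nearest to Prelp (0.293), and Ogn at rank 17 of those nearest to Dcn (0.191).

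**Figure D5:**
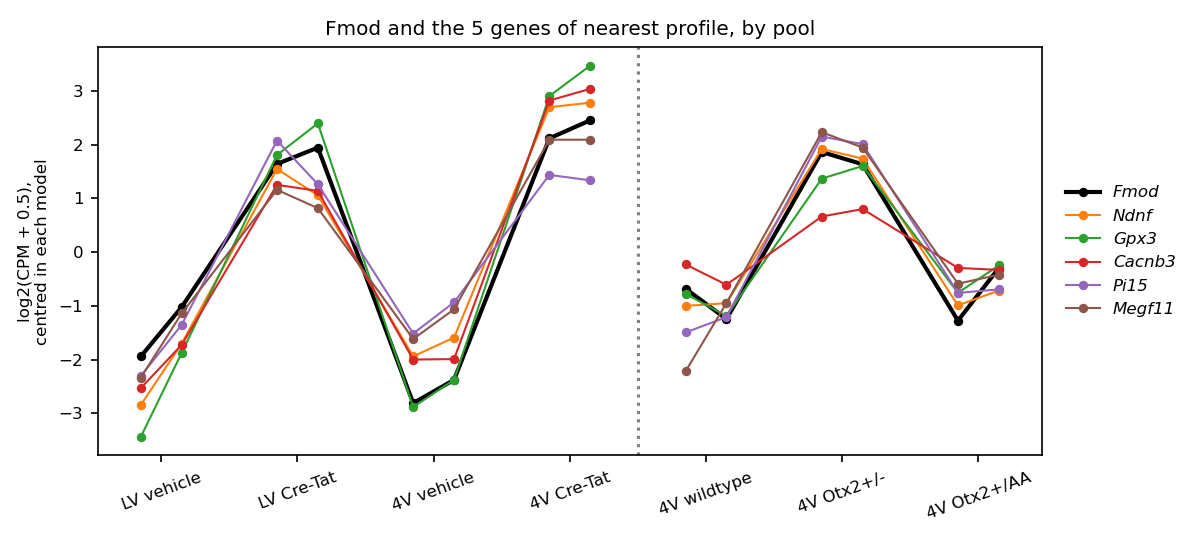
Log2(CPM + 0.5) of Fmod (black) and of the 5 genes with the nearest profiles, centred within each model, for pools A and B of the 7 groups. Lines join the points of a gene and carry no order. All 6 genes are high in Cre-Tat and Otx2+/- pools, and Cacnb3 stands lower than the rest in Otx2+/-.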

How the data were processed

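The authors deposited 22 files of counts, whole numbers of reads per Ensembl transcript without normalization. Per the labels, libraries were made after Ribo-Zero depletion with strand-specific ScriptSeq kits, while the methods of the study name PolyA+ selection. The submitters' processing notes name bcl2fastq 1.8.4, Bowtie 0.12.9, SAMtools, HTSeq 0.5.3, DESeq 1.8.3 and the mm10 genome. The transcripts (95533) were matched to GENCODE vM21 of GRCm38, and 82807 matched, with 89.5% of the counts. A read can be counted on several transcripts, so only the transcript with the most counts stood for a gene. Both runs of a pool were summed, joined by library number, with the files as attached as an alternative.

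The quasi-likelihood test of edgeR 4.0.16 (R 4.3.3), after filterByExpr and TMM, was run on the 4 pools compared (8 for the interactions). P-values were adjusted by Benjamini-Hochberg over every gene in the fit, and the threshold was 0.05. With 2 pools a group, exact permutation p-values stop at 0.333 and cannot pass. CPM were computed here from library sizes scaled by TMM over all 14 pools, with no pseudocount, and errors are SD over 2 pools or SE of the fit. Library totals set the counting error alone. The script was tested on simulated data. Levels and profiles were computed with pandas 2.3.3, SciPy 1.17.1 and NumPy 2.4.6 under Python 3.11.15.

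The members and lists were chosen with earlier results of these data known. Named genes are the members, the other genes of the family, up to 4 genes per list with the largest changes called in 4V after Cre-Tat, genes within 200 kb of Fmod, and those of nearest profile. Col5a2 and the markers were named to complete counts, after their values were seen. As alternatives, the tests were repeated with DESeq2 1.42.0, with its size factors or total counts as the scale, without the filter or with a minimum mean count of 10, with pool letters as a block, on every group of the run together, on summed transcripts, and without each pool. Levels were also ranked without length, and profiles compared with centring over all pools or a pseudocount of 2.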

Additional observations from a re-analysis of the deposited data

Results flagged for a closer look

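The effect in 4V ChP differed between Cre-Tat and Otx2+/- for Prelp, Ecm2 and Bgn by the edgeR test of the difference itself. On the log2 scale, the Cre-Tat effect minus the Otx2+/- effect was 1.09 for Prelp, 0.97 for Ecm2 and -0.76 for Bgn, with adjusted p-values of 0.033, 0.016 and 0.042. For Fmod it was 2.18, given as a description since its changes chose the family. Prelp was higher with Cre-Tat by 1.49 and with Otx2+/- by 0.39, Ecm2 by 1.16 and 0.17, and Bgn had values of -0.51 and 0.25. The calls of the difference for Prelp, Ecm2 and Bgn depended on single pools. With all transcripts of a gene summed, Bgn and Prelp did not pass (edgeR, adjusted p = 0.16 and 0.059). The models differed in strain, in the time since the loss of Otx2 and in sequencing run, which cannot be told apart. Groups of 2 pools are too small for a test of single outlying pools.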

How the results depend on the processing

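Of 940 values of members under an alternative, 846 kept their side of the threshold, among them 33 that differed in sign with neither value past it, 48 lost a call, 34 gained one and 12 reversed. All reversals came from the files as attached to the samples, which put libraries of different groups into 1 pool. There the log2 values after Cre-Tat in LV were -0.5 for Fmod, 0.44 for Dcn, 0.19 for Bgn, -0.15 for Prelp and 0.58 for Aspn, with 10 members past the threshold. In 4V they were -0.69 for Fmod, 0.45 for Bgn, -0.45 for Prelp and -0.04 for Ecm2, and between ventricles -0.49 for Fmod, 0.27 for Lum and -0.55 for Prelp. The counts that follow include Fmod, whose values chose the family. After Cre-Tat, in Otx2+/- and for the differences, a count of 1 can therefore be Fmod alone and is no test of the members. With pools left out in turn, the members called numbered 1 to 3 after Cre-Tat in LV, 4 to 6 in 4V, 1 to 3 in Otx2+/-, 1 to 5 between ventricles, 0 to 1 for the difference between ventricles and 1 to 4 for the difference between models. DESeq2 called 3 members after Cre-Tat in 4V, 3 in Otx2+/- and 1 between ventricles. Total counts gave 3 in Otx2+/- and, between ventricles, 1 higher and 1 lower, and all groups in 1 fit gave 2 in Otx2+/-. Summed transcripts gave 3 in 4V after Cre-Tat and 2 for the difference between models, and no filter gave 1 in Otx2+/AA and 1 for the difference between ventricles. The cause was not tested.

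The pool letters are not stated to pair the pools, and the deviations of pools with the same letter correlated at -0.13 to 0.36. With the letter as a replicate block, 5 members passed in Otx2+/-, 1 in Otx2+/AA and 5 between ventricles. The crossed block, added after seeing the data for the comparison in LV, called 3 members. These block counts are over all 10 members and so include Fmod. Without transcript length, 4 of the 10 members kept their rank by mean level over the 14 pools, and with profiles centred over all 14 pools, 3 of the 5 genes nearest to Fmod stayed among the nearest. With 2 pools a group, differences near the spread between pools could not be detected.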
